A study of Mus musculus with 6 samples.

Results

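IAPEY elements are a subgroup of the intracisternal A particles (IAP), a family of mouse retrotransposons in the ERVK group of endogenous retroviruses. They were followed in RNA from mouse embryonic fibroblasts without β-actin and from wild-type fibroblasts. The subgroup was taken as every repeat row whose name starts with IAPEY, in either case, which gave 10 of 1336 rows. They were 4 internal regions (IAPEy-int, IAPEY3-int, IAPEY4_I-int and IAPEY5_I-int) and 6 long terminal repeats (IAPEY_LTR, IAPEY2_LTR, IAPEY3_LTR, IAPEY3C_LTR, IAPEY4_LTR and IAPEY5_LTR). The files place all 10 in class LTR and family ERVK, and all 10 had enough counts to be tested.

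The KO group was 3 libraries from fibroblasts labelled β-actin knockout (Actb-/- in the series title). The WT group was 3 libraries from wild-type fibroblasts. Both groups carry the strain label BALB/c and come from embryos 10.5 days old, and the series describes the replicates as biological. How the knockout was made, whether embryos were pooled, and the sex of the embryos are not stated in the labels. No row is a protein-coding gene, so neither the loss of Actb nor the fibroblast label could be checked. In such bulk RNA, fewer cells with an RNA and less of it per cell cannot be told apart.

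An IAP provirus has a long terminal repeat (LTR) at each end and an internal region between them. The LTR holds the promoter and the signal that ends the transcript, and the internal region encodes the proteins for particle assembly and reverse transcription. LTRs also occur alone, as solo LTRs, after recombination between the ends of a provirus. IAPE elements are relatives of the IAPs that carry an envelope gene, and the IAPEY name was given to copies amplified on the mouse Y chromosome. In somatic cells most IAP copies are held silent by DNA methylation and by repressive histone marks.

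Libraries held 7708630 to 19288620 counts, of which ribosomal RNA took 32.4% to 84.8%. KO replicate 2 and WT replicate 1 had the least ribosomal RNA of their genotypes, at 52.9% and 32.4%. KO replicate 1 and WT replicate 2 had the most, at 84.8% and 84.1%. IAPEY rows together had 1629, 4321 and 3160 counts in KO replicates 1 to 3, against 5354, 1576 and 3159 in WT replicates 1 to 3. Single rows had from 8 counts, for IAPEY5_LTR in WT replicate 2, to 1635 counts, for IAPEY3-int in WT replicate 1. Levels below are CPM on effective library sizes from TMM scaling and are named normalized CPM. TMM scaling follows the bulk of rows and not the ribosomal RNA. Its factors ran from 0.423 in KO replicate 1 to 3.13 in WT replicate 1. SE is the standard error of a log2 fold change. The labels and files give no row lengths, so levels are compared between genotypes and not between rows.

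The summed level of the IAPEY rows differed between the genotypes by less than the spread between replicates, while 2 of the 10 rows fell in KO cells. The 10 rows together had 199.6, 215 and 213 normalized CPM in KO libraries, against 222, 205 and 219.9 in WT libraries. The means were 209 ± 8.28 in KO and 216 ± 9.34 in WT (SD, n = 3 each), and the genotypes overlapped. The 4 internal regions together were closer still, at 166 ± 2.996 normalized CPM in KO and 167 ± 3.23 in WT. The 6 LTR rows together were at 43.0 ± 5.43 in KO and 49.1 ± 7.06 in WT, again with overlap.

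The rows that fell were 1 internal region, IAPEY5_I-int, and 1 LTR, IAPEY3_LTR, which carry different subgroup numbers. No IAPEY row rose at an edgeR quasi-likelihood adjusted p below 0.05. DESeq2 and limma-voom also called 0 rises, and 3 IAPEY rows had an unadjusted p under 0.05 in edgeR: the pair that fell and IAPEY3-int. Over all 1193 tested rows, 3.6% were called lower in KO and 2.18% higher, and 11.3% and 9.56% were lower and higher at an unadjusted p under 0.05. Of the 43 rows called lower, 16 were structural RNA (rRNA, tRNA, snRNA and similar rows), of which 53 of 58 tested had fold changes below 0, with a median of -0.58. In a fit without structural RNA 21 rows were called lower, IAPEY5_I-int and IAPEY3_LTR among them. Fold changes were below 0 for 5 of 10 IAPEY rows, against 47.7% of all tested rows. The median log2 fold change was 0.05 over the IAPEY rows, against 0.01 over all tested rows.

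**Figure D1:**
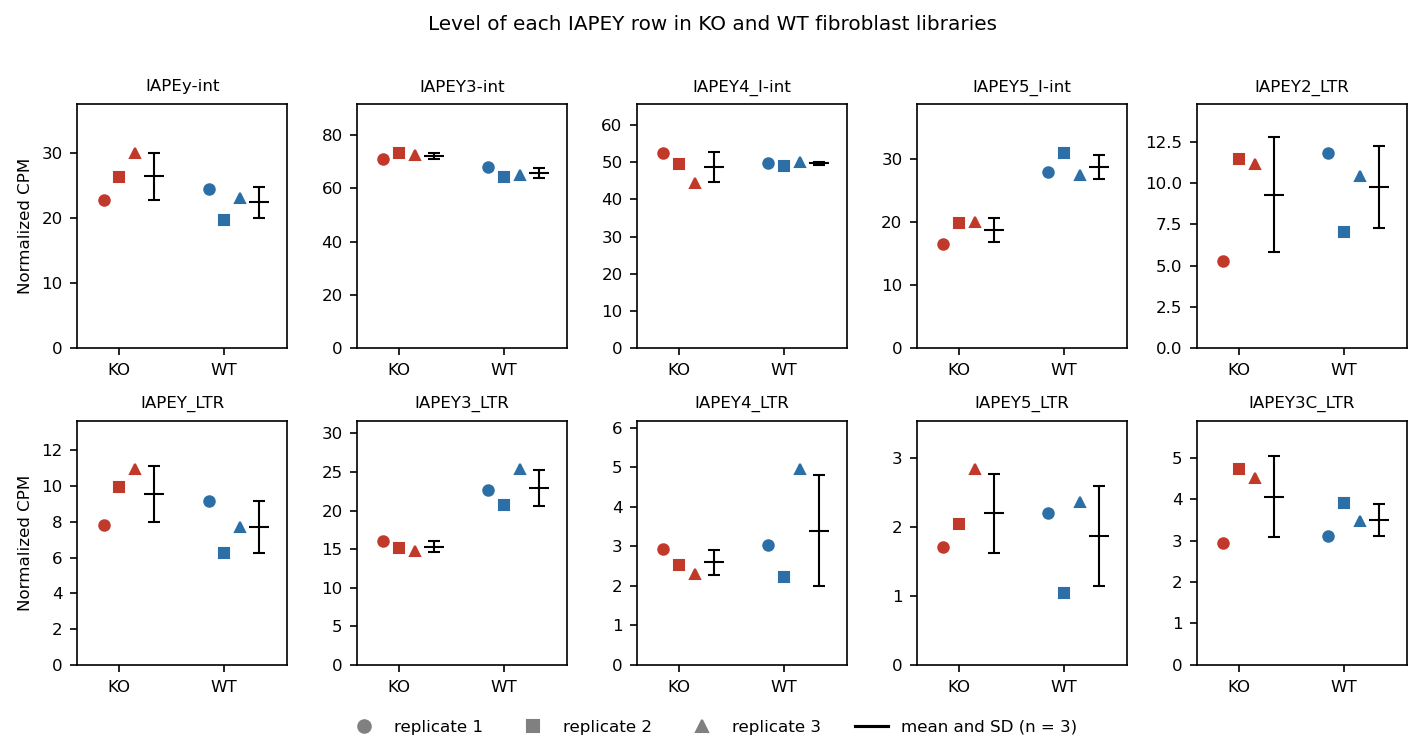
Normalized CPM (vertical axis, from 0) of each IAPEY row in KO (red, left) and WT (blue, right) libraries. Marker shapes stand for replicates and the black bar for mean and SD of 3 libraries; IAPEY5_I-int and IAPEY3_LTR are lower in all KO libraries, whereas IAPEY3-int is slightly higher in all of them.

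Among the internal regions, IAPEY5_I-int had 16.5, 19.8 and 19.97 normalized CPM in KO replicates 1 to 3, against 27.97, 31.0 and 27.4 in WT replicates 1 to 3. Every KO library lay below every WT library, as in 13.4% of tested rows. The raw counts were 135, 399 and 296 in KO and 674, 238 and 394 in WT. The mean in KO was 0.652 of that in WT, a log2 fold change of -0.59 (SE 0.09; edgeR adjusted p = 0.00872). All 6 fits without a single library kept the call, with log2 fold changes of -0.63 to -0.53. Without both WT replicate 1 and KO replicate 2, IAPEY5_I-int was at -0.64 and did not pass (edgeR adjusted p = 0.0717). Over all 17 alternatives its adjusted p ran from 8.50e-05 to 0.998, the highest when scaled by total counts. Without both KO replicate 1 and WT replicate 2, a setting added after seeing the data, it stayed past the threshold, at -0.49.

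IAPEY3-int, another internal region and the row with the most IAPEY counts, lay slightly higher in KO cells. It had 70.9, 73.2 and 72.3 normalized CPM in KO replicates 1 to 3 and 67.8, 64.1 and 65.0 in WT replicates 1 to 3. All KO libraries lay above all WT libraries, as they did in 12.4% of tested rows. The log2 fold change, 0.13 (SE 0.04), did not pass (edgeR adjusted p = 0.115), and on the total-count scale it lay below 0, at -0.25.

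The other internal regions overlapped between the genotypes. IAPEy-int had 22.9, 26.4 and 30.1 normalized CPM in KO replicates 1 to 3 and 24.5, 19.8 and 23.2 in WT replicates 1 to 3. Its log2 fold change was 0.23 (SE 0.11; edgeR adjusted p = 0.293), and -0.19 on the total-count scale. IAPEY4_I-int had 52.4, 49.4 and 44.4 in KO, against 49.8, 49.0 and 49.97 in WT. The KO libraries of IAPEY4_I-int spread to both sides of the WT libraries, which lay within 1 normalized CPM of each other.

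Among the LTRs, IAPEY3_LTR had 16.05, 15.2 and 14.7 normalized CPM in KO replicates 1 to 3, against 22.7, 20.7 and 25.3 in WT replicates 1 to 3. The genotypes did not overlap, and all KO libraries lay below all WT libraries, as they did in 13.4% of tested rows. The raw counts were 131, 306 and 218 in KO and 547, 159 and 364 in WT. The mean in KO was 0.669 of that in WT, a log2 fold change of -0.60 (SE 0.09; edgeR adjusted p = 0.00899). All 6 fits without a single library kept the call, at -0.65 to -0.51, with edgeR adjusted p up to 0.0497. Without both WT replicate 1 and KO replicate 2 it was at -0.60 and did not pass (edgeR adjusted p = 0.0952). Over all 17 alternatives its adjusted p ran from 0.000367 to 0.998, the highest when scaled by total counts.

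The 5 other LTR rows had lower counts and overlapped between the genotypes. IAPEY_LTR had 7.84, 9.93 and 10.9 normalized CPM in KO replicates 1 to 3 and 9.17, 6.24 and 7.73 in WT replicates 1 to 3. Its log2 fold change was 0.29 (SE 0.17; edgeR adjusted p = 0.398), and -0.16 on the total-count scale. IAPEY3C_LTR, a relative of IAPEY3_LTR by name, had 2.94, 4.72 and 4.52 in KO, against 3.11, 3.90 and 3.48 in WT. Its fold change did not pass (log2 0.30, SE 0.22).

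IAPEY2_LTR varied widely within both genotypes. It had 5.27, 11.5 and 11.1 normalized CPM in KO replicates 1 to 3, against 11.8, 7.02 and 10.4 in WT replicates 1 to 3. The low libraries were KO replicate 1 and WT replicate 2, those with the most ribosomal RNA. The part of ribosomal RNA in this was not tested; with its level as a covariate the log2 fold change was 0.08, against -0.06 without it. IAPEY_LTR, IAPEy-int, IAPEY3-int, IAPEY5_LTR and the IAPEY total were also lowest in KO replicate 1 among KO libraries and in WT replicate 2 among WT libraries. The remaining IAPEY rows were not lowest in both.

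IAPEY4_LTR had 2.94, 2.53 and 2.29 normalized CPM in KO replicates 1 to 3 and 3.03, 2.21 and 4.94 in WT replicates 1 to 3. WT replicate 3 stood above the rest, and the log2 fold change, -0.45 (SE 0.30), did not pass (edgeR adjusted p = 0.441). Without WT replicate 3 it was at -0.10. IAPEY5_LTR, with 8 to 53 counts per library, had 1.72, 2.04 and 2.83 normalized CPM in KO, against 2.20, 1.04 and 2.37 in WT. Its log2 fold change did not pass (0.16, SE 0.31).

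**Figure D2:**
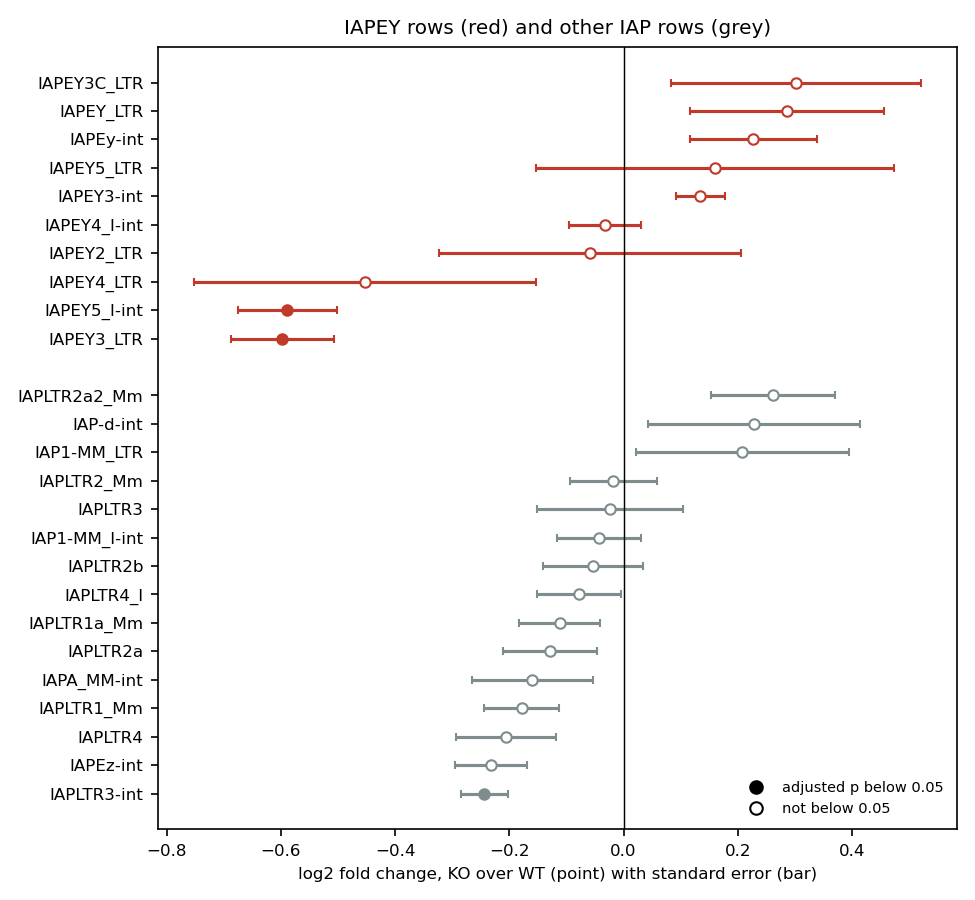
Log2 fold changes, KO over WT, with standard errors (bars) for the 10 IAPEY rows (red) and the 15 other IAP rows (grey) on the TMM scale. Filled points had an edgeR adjusted p below 0.05; the filled IAPEY points are at -0.59 and -0.60, and the filled grey point, IAPLTR3-int, is at -0.24.

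The make-up of the IAPEY RNA followed from these rows. IAPEY5_I-int gave 8.29%, 9.23% and 9.37% of IAPEY counts in KO libraries, against 12.6%, 15.1% and 12.5% in WT libraries. IAPEY3_LTR gave 8.04%, 7.08% and 6.90% in KO, against 10.2%, 10.1% and 11.5% in WT. Both shares were lower in every KO library. IAPEY3-int gave 34.5% ± 0.891 of the counts in KO and 30.5% ± 0.860 in WT (SD, n = 3 each). IAPEy-int gave 12.6% ± 1.35 in KO and 10.4% ± 0.698 in WT. Both of these shares were higher in every KO library, and those of the other 6 rows overlapped. Taken relative to the IAPEY total in the same way, 8.89% of all tested rows were lower and 17.9% higher in every KO library. Shares of a fixed total also rise where other rows of it are lower.

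**Figure D3:**
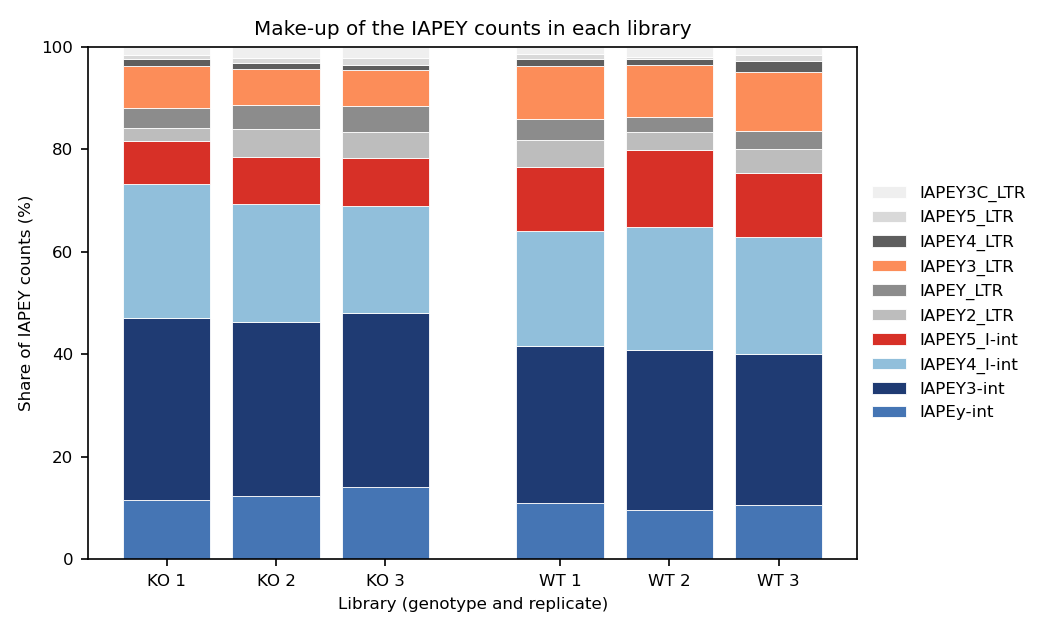
Share of the IAPEY counts (%) taken by each row in the 3 KO libraries (left) and the 3 WT libraries (right), not corrected for row length. The shares of IAPEY5_I-int (red) and IAPEY3_LTR (orange) are smaller in the KO libraries, and those of IAPEY3-int (dark blue) and IAPEy-int (mid blue) are larger.

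Each row was also tested against the rest of the subgroup, with the summed counts of the other 9 IAPEY rows as the library size. This comparison, added after seeing the data, does not use TMM scaling. IAPEY5_I-int was lower in KO relative to the rest, at a log2 fold change of -0.62 (SE 0.10; edgeR adjusted p = 0.0123), where 2.51% of tested rows were called lower. IAPEY3_LTR was lower too, at -0.60 (SE 0.10; edgeR adjusted p = 0.0110), where 2.35% were called lower. IAPEY3-int was higher, at 0.27 (SE 0.07; edgeR adjusted p = 0.0397), where 8.13% were called higher. The library size for IAPEY3-int held the pair of rows that fell. With the 7 remaining rows alone as library size its call was lost, at 0.07 (SE 0.09; edgeR adjusted p = 0.760). The other 7 rows did not pass against the rest of the subgroup.

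These calls differed in how far they rested on single libraries. The call of IAPEY5_I-int relative to the rest was kept in all 6 fits without a single library, at -0.68 to -0.53. That of IAPEY3_LTR was lost without WT replicate 3 (-0.53) or KO replicate 2 (-0.58), and without both WT replicate 1 and KO replicate 2 (-0.62; edgeR adjusted p = 0.0668). That of IAPEY3-int was lost without WT replicate 1, WT replicate 3 or any single KO replicate, at 0.24 to 0.29 in these fits, and without both WT replicate 1 and KO replicate 2 (0.28). With the replicate number as a block IAPEY3-int did not pass either (edgeR adjusted p = 0.123).

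LTR and internal region of the same name could be compared for 4 names, as the ratio of LTR counts to internal counts in each library. IAPEY3C_LTR, at a log2 fold change of 0.30 that did not pass, was not part of the IAPEY3 ratio. For IAPEY3 the ratio was 0.226, 0.208 and 0.203 in KO replicates 1 to 3, against 0.335, 0.323 and 0.390 in WT replicates 1 to 3. No KO library reached the lowest WT library, but the share of tested rows that separated in this way was not counted. IAPEY3-int itself lay slightly higher in every KO library on the TMM scale, which lowers ratios to it in KO. Relative to IAPEY3-int, IAPEY3_LTR had a log2 fold change of -0.73 (SE 0.09; edgeR adjusted p = 0.00376), in a fit where 8.72% of tested rows were called lower. The call was kept in all 6 fits without a single library, at -0.77 to -0.64. It was also kept without both WT replicate 1 and KO replicate 2, at -0.76 (edgeR adjusted p = 0.0295).

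For IAPEY5 the ratio ran the other way, at 0.104, 0.103 and 0.142 in KO libraries against 0.0786, 0.0336 and 0.0863 in WT libraries. Relative to IAPEY5_I-int, IAPEY5_LTR had a log2 fold change of 0.73 (SE 0.32; edgeR adjusted p = 0.0362). In that fit 75.2% of tested rows were called higher, since IAPEY5_I-int itself was lower in KO, so this call says little about the LTR. Leaving out WT replicate 2 (0.51) ended the call, as did leaving out KO replicate 1 (0.77) or 3 (0.55). The ratio of IAPEY_LTR to IAPEy-int was 0.361 ± 0.0173 in KO and 0.341 ± 0.0302 in WT (SD, n = 3 each). That of IAPEY4_LTR to IAPEY4_I-int was 0.0530 ± 0.00265 in KO and 0.0683 ± 0.0277 in WT. Neither passed (edgeR adjusted p = 0.829 for IAPEY_LTR and 0.545 for IAPEY4_LTR).

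**Figure D4:**
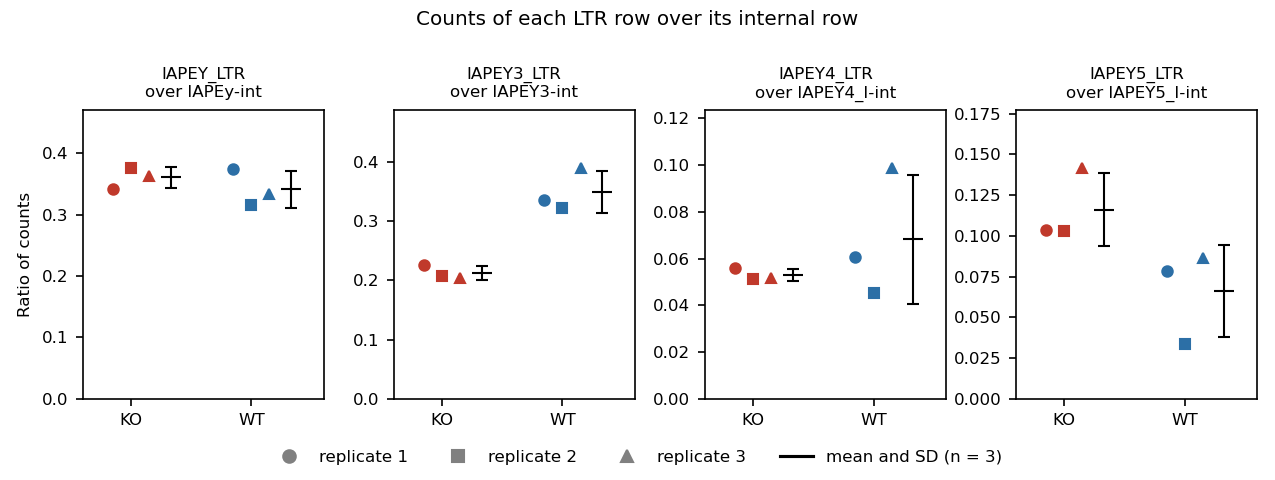
Ratio of LTR counts to internal counts (vertical axis, from 0) in KO (red, left) and WT (blue, right) libraries for the 4 names that have both; black bars are mean and SD of 3 libraries. The IAPEY3 ratio is 0.203 to 0.226 in KO and 0.323 to 0.390 in WT. Relative to IAPEY3-int, 8.72% of tested rows were called lower in KO.

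The IAP rows outside the subgroup include the family's better-known and more mobile members. Their 15 rows summed to 681 ± 10.7 normalized CPM in KO and 763 ± 19.4 in WT (SD, n = 3 each), with no overlap. Most of that difference was in 1 row, the internal region IAPEz-int, at 374 ± 12.2 in KO and 439 ± 19.2 in WT. Without it the sums were 307 ± 11.8 in KO and 323 ± 7.37 in WT. The highest KO library, replicate 3 at 318.1, then lay only just below the lowest WT library, replicate 3 at 318.8. Among single tested rows, 13.4% had all KO libraries below all WT libraries. Of the 15 rows, 12 had fold changes below 0, against 47.7% of all tested rows. edgeR called 1 of them lower and none higher, where 3.6% of all tested rows were lower and 2.18% higher. The median log2 fold change of the 15 rows was -0.08 and the range -0.24 to 0.26, against -0.60 to 0.30 in the IAPEY rows. The row that fell, IAPLTR3-int, was picked out after its values were seen. It had 53.3, 51.8 and 52.1 normalized CPM in KO and 62.0, 62.8 and 61.2 in WT. IAPEz-int was at -0.23 on the log2 scale and did not pass in edgeR (adjusted p = 0.0743). It passed with DESeq2 (adjusted p = 0.0226), limma-voom (adjusted p = 0.0354) and the ribosomal RNA covariate in edgeR (adjusted p = 0.0379), and over all alternatives its adjusted p ran up to 0.998. The LTRs IAPLTR1_Mm and IAPLTR2_Mm were at -0.18 and -0.02. Among the 250 tested ERVK rows outside the IAPs, 4 fell and 14 rose, with a median of 0.02. Over the 631 tested rows of the LTR class, 16 fell and 17 rose, with a median of 0.02.

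The difference between IAPEY rows and the other IAPs was tested row by row, with the summed counts of the 15 other IAP rows as the library size. The question was whether an IAPEY row changed by more or less than this sum. IAPEz-int held most of the sum in every library, as with 7733 of 13961 counts in KO replicate 2 and 10468 of 18468 in WT replicate 1. The comparison was therefore mostly with that row, and no fit left it out of the sum. Relative to the other IAP rows, 2 IAPEY rows were lower in KO and 2 were higher. In the same fit 2.1% of all tested rows were called lower and 14.2% higher. The summed level of the other IAP rows was itself lower in KO, which raises fold changes relative to it. Their median on the log2 scale was 0.17 over all tested rows and 0.21 over the IAPEY rows.

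IAPEY5_I-int had 24.6, 28.6 and 29.4 counts per 1000 counts of the other IAP rows in KO libraries, against 36.5, 39.7 and 37.0 in WT libraries. Its log2 fold change relative to them was -0.43 (SE 0.08; edgeR adjusted p = 0.0128). IAPEY3_LTR had 23.9, 21.9 and 21.7 counts per 1000 in KO, against 29.6, 26.5 and 34.2 in WT, a log2 fold change of -0.44 (SE 0.10; edgeR adjusted p = 0.0236). Both rows were lower in every KO library on this scale, as were 5.28% of tested rows. The IAPEY3_LTR call was lost without WT replicate 3 (-0.34), without KO replicate 2 or 3 (-0.42 in each fit), and with the replicate block (edgeR adjusted p = 0.0561).

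IAPEY3-int had 105.5, 105.5 and 106.6 counts per 1000 in KO, against 88.5, 82.2 and 87.6 in WT, and 36.1% of tested rows likewise had no KO library as low as any WT library. It was higher relative to the other IAP rows, at 0.29 (SE 0.05; edgeR adjusted p = 0.00692). IAPEy-int was higher as well, at 0.39 (SE 0.11; edgeR adjusted p = 0.0497). Its call was lost in 9 of 16 alternatives, among them limma-voom, the replicate block (edgeR adjusted p = 0.0660) and all fits without a single library except that without KO replicate 1. Without both WT replicate 1 and KO replicate 2, no IAPEY row passed relative to the other IAP rows. The log2 fold changes were then -0.48 for IAPEY5_I-int, -0.44 for IAPEY3_LTR and 0.32 for IAPEY3-int. The IAPEY rows were 22.9%, 23.6% and 23.9% of all IAP counts in KO libraries and 22.5%, 20.8% and 22.9% in WT libraries.

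**Figure D5:**
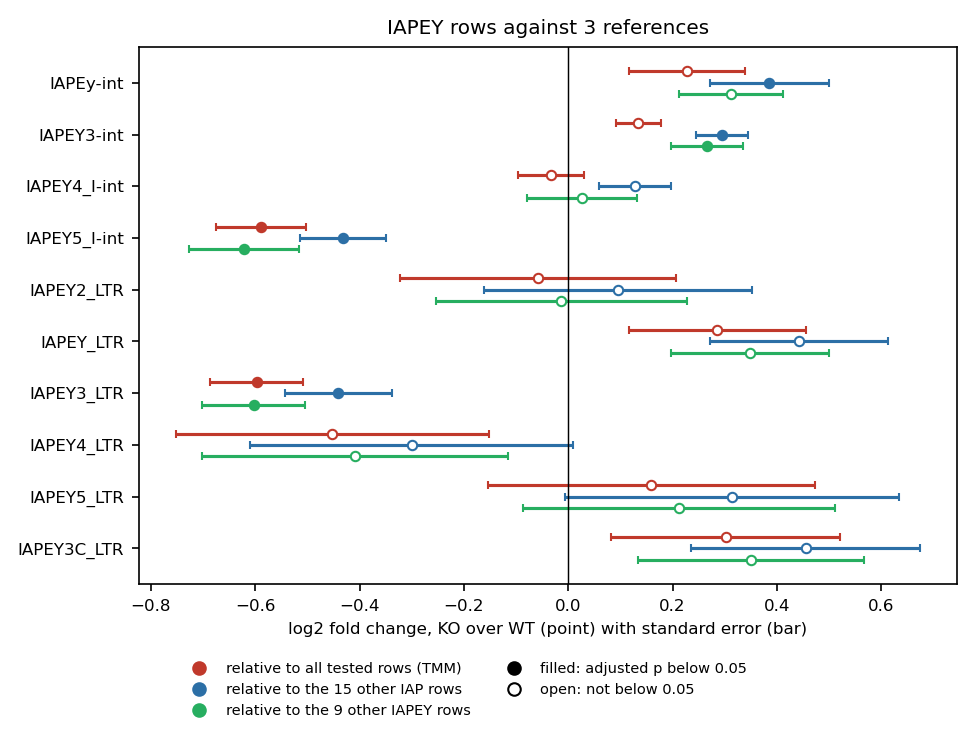
Log2 fold changes, KO over WT, with standard errors (bars) of the 10 IAPEY rows on 3 scales: all tested rows by TMM (red), the 15 other IAP rows (blue) and the other 9 IAPEY rows (green). Filled points had an edgeR adjusted p below 0.05; IAPEY5_I-int and IAPEY3_LTR lie between -0.62 and -0.43 on all 3 scales.

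Rows outside the IAPs were ranked by how closely their level followed the total IAPEY level across the 6 libraries. By Pearson correlation of log2 normalized CPM over 917 rows outside the IAPs, the closest were RLTR16C_MM (0.977), ORR1A4 (0.969), L1M3de (0.962), MLT1J (0.940) and RMER17C-int (0.938). These values describe 6 libraries that also differ in ribosomal RNA and depth. Like the IAPEY total, each of these rows was lowest in KO replicate 1 among KO libraries and in WT replicate 2 among WT libraries. Those libraries had the most ribosomal RNA, and its part in the ranking was not tested. None of these 5 rows passed between the genotypes, with log2 fold changes of -0.34 to -0.05. Within the subgroup, IAPEY2_LTR followed the total most closely (0.923), and the correlations of IAPEY3-int (-0.10) and IAPEY4_I-int (-0.27) were below 0.

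LTRs known to be active in embryonic stem and trophoblast cells, together with MERVL and its LTR from the early embryo, served as markers of other cell types. Of 40 marker rows 39 were tested, and their median was -0.01 on the log2 scale. Of these, 1 rose and none fell, where 2.18% of all tested rows rose and 3.6% fell. The row that rose, RLTR13D3A, was picked out after its values were seen. It was at 26.0 ± 0.982 normalized CPM in KO and 18.4 ± 0.650 in WT (SD, n = 3 each). Without MT2_Mm, the markers summed to 705 to 731 normalized CPM in KO libraries and 674 to 713 in WT libraries. With MT2_Mm they summed to 1474, 798 and 1181 in KO replicates 1 to 3 and 752, 1633 and 1179 in WT replicates 1 to 3. In each genotype this sum was highest in the library with the most ribosomal RNA and lowest in that with the least. The part of ribosomal RNA in the MT2_Mm level was not tested. No marker row was at 0 in any library. The part of such cells in the IAPEY values was not tested.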

How the data were processed

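RNA libraries were made from total RNA with a TruSeq Ribo-Zero kit, per the labels' protocols. FastQC 0.11.5, Trimmomatic and Bowtie2 and the builds mm10 and GRCm38 are named, per the submitters' processing notes. The authors deposited estimated counts (fractional counts, from the file names) per repeat row, summed over genomic copies without normalization, and all values were whole numbers. The labels name no counting tool or repeat annotation and do not say how strand, or reads shared between similar rows, were treated. Reads shared by related IAPEY rows, or from copies inside genes, could therefore not be separated.

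KO was compared with WT in edgeR 4.0.16 (R 4.3.3): filterByExpr (143 rows removed), TMM, quasi-likelihood test over 1193 rows, Benjamini-Hochberg adjustment at 0.05. Standard errors came from the test statistic. Tests relative to other rows used the summed counts of those rows as library size in the same fit over all tested rows. Alternatives included DESeq2 1.42.0 and limma-voom (limma 3.58.1). The procedure was tested on simulated data, drawn row by row from the fitted model. These data held no shift tied to ribosomal RNA, so they cannot show how the procedure copes with one. Over all rows, ribosomal RNA included, no 2 replicates of a genotype agreed within sampling noise. Between such replicates the chi-square per degree of freedom was 442 to 6317 over all rows and 1.37 to 5.49 over the IAPEY rows. The members, lists and tests were chosen with earlier results of these data known. Named outside the subgroup were 3 well-known IAP rows and the 5 rows averaging 50 counts or more whose level was most correlated with the IAPEY total.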

Additional observations from a re-analysis of the deposited data

How the results depend on the processing

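IAPEY5_I-int and IAPEY3_LTR were the 2 rows called lower in all alternatives but 2. There were 0 calls when scaled by total counts, ribosomal RNA included, and 0 without both WT replicate 1 and KO replicate 2. With total counts the median of all rows moved to -0.36, IAPEY5_I-int and IAPEY3_LTR were at -0.90 and -0.97, the summed IAPEY rows at -0.26 (-0.04 on the TMM scale), and 0 rows in all were called lower or higher in edgeR, with 3 at an unadjusted p under 0.05. Over all rows, 43 were called lower and 26 higher; without structural RNA 21 were lower, with the replicate block 14 and 10, without both WT replicate 1 and KO replicate 2 7 and 2, and without both KO replicate 1 and WT replicate 2 (added after seeing the data) 23 and 13. Leaving out single libraries gave 11 to 43 lower and 11 to 26 higher. Same-numbered KO and WT libraries correlated at -0.55, -0.50 and 0.04 in their deviations, so the numbers were not taken to pair samples; the replicate block kept both IAPEY calls (edgeR adjusted p = 0.0338 and 0.0494).

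Relative to the other IAP rows, the replicate block left 1 row lower and 1 higher, a mean of at least 50 counts and limma-voom left 1 higher, the rRNA covariate gave 3 higher, leaving out both WT replicate 1 and KO replicate 2 gave 0 and 0, and leaving out single libraries gave 1 to 2 lower and 1 to 2 higher.

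Some rows that were not called changed sign. With total counts IAPEY_LTR was at -0.16, IAPEy-int at -0.19, IAPEY3-int at -0.25 and IAPEY5_LTR at -0.31. With the rRNA covariate IAPEY2_LTR was at 0.080 (0.12 relative to the other 9 IAPEY rows) and IAPLTR2_Mm at 0.020. Without both WT replicate 1 and KO replicate 2, IAPLTR2_Mm was at 0.018. Without both KO replicate 1 and WT replicate 2, IAPEY2_LTR was at 0.064 and IAPEY4_I-int at -0.051 relative to the other 9 IAPEY rows. Over fits without a single library the ranges that crossed 0 were -0.23 to 0.14 for IAPEY2_LTR, -0.086 to 0.027 for IAPEY4_I-int, -0.062 to 0.31 for IAPEY5_LTR and -0.058 to 0.046 for IAPLTR2_Mm. Relative to the other IAP rows they were -0.061 to 0.30 for IAPEY2_LTR and -0.46 to 0.065 for IAPEY4_LTR. Relative to the other 9 IAPEY rows they were -0.17 to 0.18 for IAPEY2_LTR and -0.084 to 0.12 for IAPEY4_I-int. The cause was not tested. IAPEY3C_LTR, IAPEY4_LTR and IAPEY5_LTR rest on 8 to 95 counts per library.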
